A study of Mus musculus with 8 samples.

Results

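Interferon-stimulated antiviral genes are the genes that cells switch on when they sense interferon, and many of their products stop a virus from entering, copying itself or leaving the cell. A list of 49 such mouse genes was followed, taken by gene symbol and without the guanylate-binding proteins and immunity-related GTPases. Of these, 45 had a line in the deposited table of 11841 gene symbols, and 39 carried enough RNA to be tested among 10281 tested genes, the condition being at least 1 FPKM in at least 2 libraries. FPKM counts the fragments of a transcript per unit of its length and per sequenced fragment of the library, so levels of different genes can be set side by side. The RNA came from CD44+ CD4+ T cells, helper T cells that have met antigen, from lymph nodes draining the skin of BALB/cAJcl mice. Every sample was exposed to PMA and ionomycin over 2 h, chemicals that activate T cells without engaging their receptor, so no unstimulated level was measured. The mice were T-bet-/- STAT6-/- (double-null), STAT6-/- (STAT6-null), T-bet-/- (T-bet-null) or wild type (WT), with 2 libraries of each genotype and 8 in all. The labels state no age, sex, batch or design of the mutant alleles. Whether the 2 libraries of one genotype stem from different animals is not stated either, so the p-values reflect the spread among these samples alone, possibly a technical one.

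Type I interferons bind a receptor made of IFNAR1 and IFNAR2 and, through the kinases JAK1 and TYK2, start a complex that includes IRF9 and binds the interferon-stimulated response element (ISRE) of antiviral genes. Interferon gamma (IFN-γ), the product of Ifng, signals through IFNGR1 and IFNGR2 to JAK1 and JAK2 and acts on genes that hold a gamma-activated site (GAS). Irf1 is a classic GAS gene whose product in turn binds ISRE-like sites. T-bet, encoded by Tbx21, drives the Th1 program of helper T cells, whose hallmark cytokine is IFN-γ, and STAT6 carries the IL-4 signal that drives the Th2 program.

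The targeted transcripts were lowest in the genotypes named as null for them. Tbx21 stood at 2.49 and 2.09 FPKM in double-null, 102 and 92.1 FPKM in STAT6-null, 1.44 and 1.54 FPKM in T-bet-null and 30.8 and 31.6 FPKM in WT libraries. Stat6 stood at 26.9 to 31.6 FPKM in the 4 libraries that lack STAT6 and at 88.8 to 90.9 FPKM in the other 4. All 11 markers of helper T cells had a line in the table, and their summed level was 4473 to 5202 FPKM in each library. Cd40lg carried the largest part, with genotype means of 1754 to 2185 FPKM, and single markers were less even. Cd4 averaged 99.1 FPKM in double-null, 127 in STAT6-null, 118 in T-bet-null and 201 in WT cells. At a limma adjusted p under 0.05, 6 of the 11 were lower and 3 higher in double-null than in WT cells. In STAT6-null cells 6 were lower and 3 higher, and in T-bet-null cells 7 and 1. Of all tested genes, 36.1% to 36.7% were lower and 34.2% to 36.3% higher in these comparisons. The WT libraries stood apart from all 6 mutant libraries, with Pearson r of log2(FPKM + 1) across genes of 0.934 to 0.954 between WT and mutant libraries, 0.983 to 0.989 between mutant genotypes and 0.997 to 0.998 within a genotype. The 2 erythroid markers with a line in the table summed to 2.63 to 7.48 FPKM in the mutant libraries and to 224 and 442 FPKM in the WT libraries, so each comparison with WT holds that difference too. Comparisons between mutant genotypes hold no WT library and are given first. In bulk RNA, fewer cells of a type and less RNA per cell cannot be told apart. Depth, read from the steps of low values, spanned 0.856 to 1.04 relative to WT replicate 1, and its absolute size is unknown.

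Promoter sequences were set beside the list because the pathway acts through short DNA elements. RefSeq promoter windows of GRCm38.p6, from 250 bases before to 50 after a transcript's start, were found for 37 of the 49 genes. The ISRE core searched was TTTC, any 2 bases and TTTC again, or GAAA, any 2 bases and GAAA when read on the other strand, and the GAS core was TTCNNNGAA, which reads the same on both strands. An ISRE core was present for 13 of the 37 genes (35.1%), against 3.99% of 27025 genes with a window of the same length. A GAS core was present for 9 of the 37 (24.3%), against 9.55% of all genes. A gene counts if any of its windows holds the core, and these genes averaged 1.35 windows against 1.22 for all. In 2 genes, Bst2 and Ifitm3, an ISRE core overlapped a GAS core. Of the members called higher in STAT6-null than in T-bet-null cells, 14 had a window, and 6 of these held an ISRE core and 5 a GAS core. Of the tested members not called so, 17 had a window, and 4 of these held an ISRE core and 3 a GAS core. The 5 windows with an ISRE core whose genes had the largest differences between genotypes are printed 5′ to 3′ along the gene, with ISRE cores in capitals, to show how the element varies in number and place. They are those of Ifih1 (chr2:62646206-62646505, minus strand), Ifitm2 (chr7:140955912-140956211, minus strand), Ifit1 (chr19:34640639-34640938, plus strand), Ifitm3 (chr7:141010695-141010994, minus strand) and Isg15 (chr4:156200769-156201068, minus strand).
Ifih1: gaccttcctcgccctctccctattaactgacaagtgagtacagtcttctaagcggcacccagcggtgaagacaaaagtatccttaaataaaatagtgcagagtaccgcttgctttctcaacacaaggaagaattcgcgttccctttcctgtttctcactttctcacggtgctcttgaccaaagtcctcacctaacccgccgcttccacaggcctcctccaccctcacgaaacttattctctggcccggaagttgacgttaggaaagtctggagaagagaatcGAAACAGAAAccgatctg
Ifitm2: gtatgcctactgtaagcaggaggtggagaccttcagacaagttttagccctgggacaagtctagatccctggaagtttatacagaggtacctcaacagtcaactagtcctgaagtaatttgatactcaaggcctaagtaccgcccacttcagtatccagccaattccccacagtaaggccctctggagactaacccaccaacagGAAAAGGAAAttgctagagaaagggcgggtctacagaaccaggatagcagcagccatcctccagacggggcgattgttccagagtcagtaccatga
Ifit1: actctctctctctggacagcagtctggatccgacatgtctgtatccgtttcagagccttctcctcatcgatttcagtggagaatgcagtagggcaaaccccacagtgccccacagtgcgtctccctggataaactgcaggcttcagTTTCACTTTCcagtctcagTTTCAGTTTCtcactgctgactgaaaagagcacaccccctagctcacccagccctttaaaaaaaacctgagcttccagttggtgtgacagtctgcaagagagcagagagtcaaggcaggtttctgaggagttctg
Ifitm3: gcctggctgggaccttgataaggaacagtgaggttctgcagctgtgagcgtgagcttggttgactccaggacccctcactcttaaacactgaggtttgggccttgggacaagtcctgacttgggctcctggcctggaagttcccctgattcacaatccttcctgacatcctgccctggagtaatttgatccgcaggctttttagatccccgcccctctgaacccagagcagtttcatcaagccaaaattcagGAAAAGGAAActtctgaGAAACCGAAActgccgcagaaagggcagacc
Isg15: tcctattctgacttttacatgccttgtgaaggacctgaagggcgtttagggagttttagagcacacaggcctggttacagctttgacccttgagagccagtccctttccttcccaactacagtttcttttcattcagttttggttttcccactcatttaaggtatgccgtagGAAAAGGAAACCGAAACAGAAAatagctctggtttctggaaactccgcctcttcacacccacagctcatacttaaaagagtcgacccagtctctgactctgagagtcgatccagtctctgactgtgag
Counted with the start site as base 1 and no base 0, the core of Ifih1 begins at base 33 and that of Ifitm2 at base -46. Ifit1 has its cores at bases -104 and -85, and Ifitm3 has them at bases 3 and 20. Isg15 has 3 cores that run into each other from base -78. The window of Irf1 (chr11:53769764-53770063, plus strand), chosen after its values were seen, has no ISRE core and is printed with its GAS core, at base -90, in capitals.
Irf1: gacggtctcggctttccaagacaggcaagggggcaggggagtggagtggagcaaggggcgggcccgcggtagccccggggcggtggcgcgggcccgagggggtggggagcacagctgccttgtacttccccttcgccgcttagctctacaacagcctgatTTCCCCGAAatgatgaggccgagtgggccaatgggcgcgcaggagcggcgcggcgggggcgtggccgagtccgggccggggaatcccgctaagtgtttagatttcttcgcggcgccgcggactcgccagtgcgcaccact
The letters come from the reference genome, which is of another mouse strain than BALB/cAJcl. A match describes the sequence and is not shown to be bound in these cells.

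Each member had its own balance between the genotypes, and 2 orders recurred. In 23 of the 39 tested members (59%) both STAT6-null libraries stood above all 4 libraries that lack T-bet, an order found in 13.3% of all tested genes, and in 0 members did both stand below, against 18.6% of all genes. In 22 members (56.4%) both WT libraries stood above all 6 mutant libraries, against 33.7% of all genes. Of these, Dhx58, Eif2ak2 and Ifit1 reached 1 FPKM in WT libraries alone, which fixed the order for them, and among the other 36 members it held in 19 (52.8%). In 5 (Ifih1, Adar, Ifitm1, Trim25 and Daxx) both stood below, against 33.2%. By mean level the highest genotype was the double-null in 1, the STAT6-null in 12, the T-bet-null in 2 and the WT in 24 members. The lowest was the double-null in 16, the STAT6-null in 1, the T-bet-null in 16 and the WT in 6. The 2 libraries of a genotype differed by a median of 0.14 (double-null), 0.10 (STAT6-null), 0.06 (T-bet-null) and 0.13 (WT) on the log2 scale over the tested members.

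**Figure D1:**
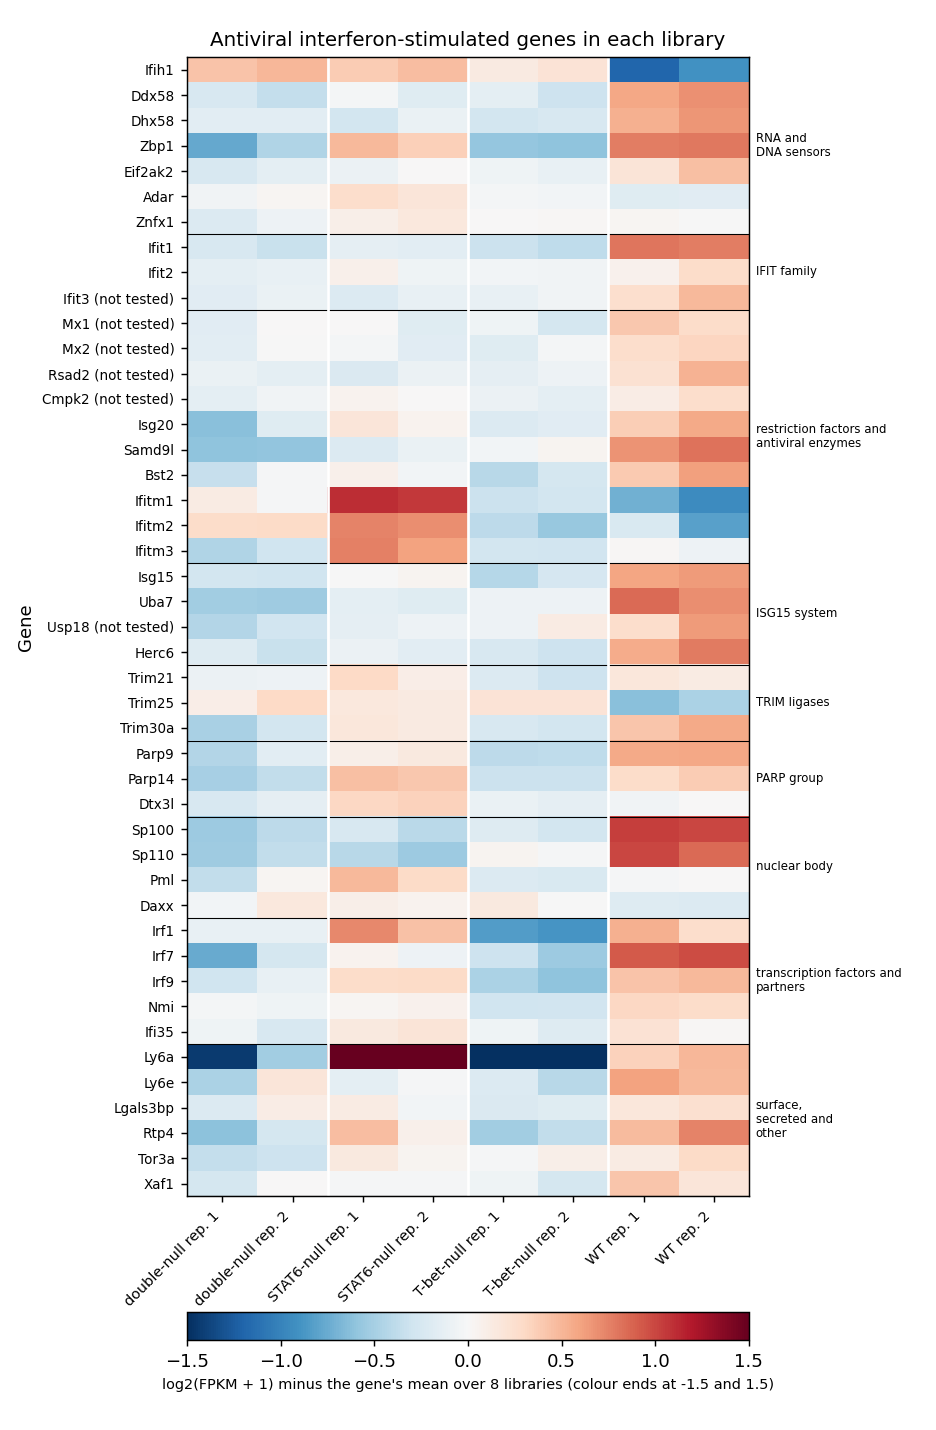
Level of each of the 45 antiviral genes with a line in the table, as log2(FPKM + 1) minus the gene's mean over the 8 libraries (colour, ending at -1.5 and 1.5), with genes grouped by role and libraries in columns by genotype. Red is strongest in the STAT6-null columns for Ly6a, Ifitm1, Ifitm2 and Ifitm3, and Irf1 is red in both the STAT6-null and the WT columns. Red blocks in the WT columns mark the larger group that includes Sp100, Sp110, Irf7, Ifit1 and Isg15.

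Many antiviral genes, among them Ly6a, Zbp1, Irf1, Parp14, Ifitm1 and Ifitm3, were higher in STAT6-null cells, which have T-bet, than in mutant cells that lack it. By genotype, double-null and STAT6-null cells differ in T-bet alone, while STAT6-null and T-bet-null cells differ in both genes. Limma was run on log2(FPKM + 1) over all tested genes, and a gene was called at a Benjamini-Hochberg adjusted p under 0.05. Against T-bet-null cells, STAT6-null cells had 19 members called higher and 1, Sp110, called lower. These are 48.7% and 2.56% of the 39 tested members, while 12.3% and 14.9% of all tested genes were called higher and lower. The median log2 difference was 0.294 over the members and -0.025 over all tested genes. Against STAT6-null cells, double-null cells had 0 members called higher by limma and 21 called lower (53.8%), while 11.3% and 8.63% of all tested genes were called higher and lower. The median log2 difference here was -0.308 over the members and 0.014 over all genes, and 0 members were higher at an unadjusted p under 0.05. Both comparisons use the STAT6-null libraries. Summed markers of myeloid and dendritic cells, 8 of 12 with a line in the table, stood at 58.3 to 70.2 FPKM in double-null, 82.4 to 82.6 FPKM in STAT6-null and 60.5 to 62.4 FPKM in T-bet-null libraries, and their part in these differences was not tested. Ctss carried most of that sum, with means of 46.3 FPKM in double-null, 58.4 FPKM in STAT6-null and 49.5 FPKM in T-bet-null cells. In that order Lyz2 averaged 8.27, 13.3 and 3.04 FPKM and Cd68 4.82, 5.71 and 3.85 FPKM. Zbtb46 averaged 0.769, 1.25 and 0.636 FPKM and Tyrobp 0.723, 0.908 and 0.456 FPKM. Fcer1g was highest in T-bet-null cells, with 0.421, 0.431 and 1.20 FPKM. Xcr1 had 2.48, 2.14 and 2.31 FPKM, and Cd14, not tested, had 0.505, 0.338 and 0.531 FPKM. Of the 7 tested markers of that list, 4 were called higher and 1 lower in STAT6-null than in T-bet-null cells. In double-null cells 0 were called higher and 2 lower than in STAT6-null cells. Csf1r, Itgam, Itgax and Flt3, 4 of that list's markers, have no line in the table. Plasmacytoid dendritic cells, strong makers of type I interferon, had 2 of 5 markers in the table, with summed levels of 45.1 to 47.0 FPKM in double-null, 56.9 to 59.5 FPKM in STAT6-null and 31.1 to 31.8 FPKM in T-bet-null libraries. Nearly all of that sum is Runx2, and the other marker, Tcf4, averaged 0.376, 0.338 and 0.354 FPKM in that order. The markers Siglech, Ccr9 and Ly6d have no line, so the sum reflects 1 gene and does not show a difference in that cell type. Summed B cell markers, 6 of 7 with a line, stood at 2.15 to 3.07 FPKM in double-null and 2.47 to 2.69 FPKM in T-bet-null libraries. They stood at 8.09 and 3.26 FPKM in STAT6-null replicates 1 and 2. Of the 11 helper T cell markers, 0 were called higher and 4 lower in double-null than in STAT6-null cells. In STAT6-null cells 5 were called higher and 2 lower than in T-bet-null cells. The part of the plasmacytoid, B cell and helper T cell markers was not tested.

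In cells that lacked T-bet, loss of STAT6 as well changed antiviral genes about as often as other genes. Double-null cells had 6 members called higher (15.4%) and 5 called lower (12.8%) than T-bet-null cells, near the 16.4% and 16.2% of all tested genes. In either direction these are 28.2% of members and 32.6% of all genes. Those higher were Ifitm2, Irf1, Ifitm1, Irf9, Ifih1 and Nmi, and those lower were Samd9l, Sp110, Uba7, Tor3a and Sp100. The median log2 difference was 0.004 over the members, and 0 members were called with a difference of at least 2-fold.

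All 3 mutants had more antiviral genes below the WT level than above it. T-bet-null cells had 4 members called higher (10.3%) and 28 lower (71.8%) than WT cells, while 34.2% and 36.3% of all tested genes were called higher and lower. STAT6-null cells had 10 higher (25.6%) and 19 lower (48.7%), while 34.9% and 36.1% of all genes were called. Double-null cells had 6 higher (15.4%) and 29 lower (74.4%), while 36.3% and 36.7% of all genes were called. The median log2 difference from WT was -0.662 in double-null, -0.248 in STAT6-null and -0.653 in T-bet-null cells, against -0.005, -0.009 and -0.016 over all genes. These comparisons share the WT libraries, where the summed myeloid and dendritic markers stood at 131 to 132 FPKM, with Ctss at a mean of 108 FPKM. The plasmacytoid markers went opposite ways, with WT means of 10.7 FPKM for Runx2, the lowest genotype, and 0.541 FPKM for Tcf4, the highest. The part of these markers and of the erythroid ones was not tested. In 3 members, Dhx58, Eif2ak2 and Ifit1, no mutant library reached 1 FPKM, so they could be tested only because WT was high. Among the other 36, the counts were 4 higher and 25 lower in T-bet-null, 10 and 16 in STAT6-null and 6 and 26 in double-null cells.

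**Figure D2:**
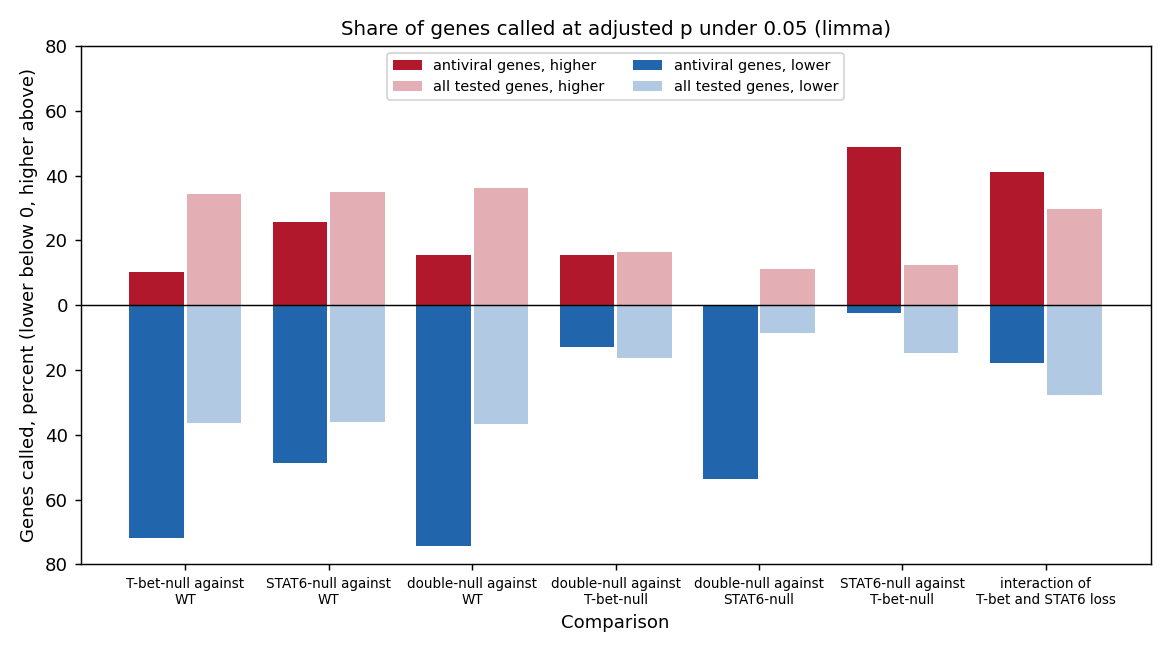
Share of genes called at an adjusted p under 0.05 (limma) in each comparison, in percent, with genes called higher above 0 and genes called lower below 0; dark bars are the 39 tested antiviral genes and pale bars all 10281 tested genes. In double-null against STAT6-null cells the dark and pale bars stand at 0 and 11.3% higher and at 53.8% and 8.63% lower, and in STAT6-null against T-bet-null cells at 48.7% and 12.3% higher.

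In the pathway, transcription factors stand between the signal and the antiviral genes, and their order in time was not measured here. Irf1, which is induced early by IFN-γ, stood at 53.2 and 53.0 FPKM in double-null, 95.01 and 77.9 FPKM in STAT6-null, 31.6 and 30.7 FPKM in T-bet-null and 83.2 and 68.9 FPKM in WT libraries. The T-bet-null libraries were lowest, the double-null ones stood between, and the STAT6-null and WT libraries overlapped. Irf1 was higher in STAT6-null than in T-bet-null cells (log2 difference 1.44 ± 0.10 (SE), limma adjusted p = 2.59e-05), higher in double-null cells than in T-bet-null ones (0.75 ± 0.10, limma adjusted p = 0.0011) and lower in double-null than in STAT6-null cells (-0.69 ± 0.10, limma adjusted p = 0.00282). Irf9, the DNA-binding part of the complex that type I interferons form, stood at 13.5 and 15.4 FPKM in double-null, 20.6 and 20.7 FPKM in STAT6-null, 11.8 and 10.8 FPKM in T-bet-null and 23.0 and 24.0 FPKM in WT libraries. The 4 genotypes did not overlap, in the rising order T-bet-null, double-null, STAT6-null and WT. The log2 difference of Irf9 between STAT6-null and T-bet-null cells was 0.82 ± 0.07 (limma adjusted p = 9.5e-05). Irf7, which amplifies type I interferon production, had another order, at 4.41 and 6.57 FPKM in double-null, 8.43 and 7.66 FPKM in STAT6-null, 6.34 and 5.25 FPKM in T-bet-null and 16.2 and 16.9 FPKM in WT libraries. Both WT libraries stood far above all 6 mutant ones, and the double-null and T-bet-null libraries overlapped. Irf7 fell against WT by 1.46, 0.96 and 1.37 on the log2 scale in double-null, STAT6-null and T-bet-null cells. Nmi and Ifi35 encode proteins that bind each other. Nmi was 12.4 and 12.6 FPKM in T-bet-null libraries, below the 14.7 to 19.6 FPKM of the other 6. Ifi35 moved least of the 5, with 12.7 to 17.8 FPKM over all 8 libraries.

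Ly6a moved most of all members. It encodes Sca-1, a surface protein of T cells that interferon is known to induce. Ly6a stood at 2.98 and 6.49 FPKM in double-null, 42.1 and 53.6 FPKM in STAT6-null, 2.63 and 2.45 FPKM in T-bet-null and 12.7 and 14.2 FPKM in WT libraries. The STAT6-null libraries were above WT, WT was above both genotypes without T-bet, and no library of one of these 3 levels overlapped another. The mean FPKM in STAT6-null cells was 18.9 times that in T-bet-null and 10.1 times that in double-null cells. On the log2 scale the difference was 3.78 ± 0.24 for STAT6-null against T-bet-null (limma adjusted p = 1.36e-05) and -3.15 ± 0.24 for double-null against STAT6-null cells (limma adjusted p = 7.32e-05). Against WT, the log2 difference of Ly6a was -1.40 in double-null, 1.75 in STAT6-null and -2.03 in T-bet-null cells. The 2 double-null libraries differed by 0.913 on the log2 scale, the widest gap of any tested member within a genotype. Double-null and T-bet-null cells differed by 0.63 ± 0.24, limma adjusted p = 0.0786, and by 1.08 with limma adjusted p = 0.00138 when double-null replicate 1 was left out. Its neighbour Ly6e, 34972 bases away on chromosome 15, encodes a surface protein that blocks the entry of coronaviruses. Ly6e stood at 22.5 and 36.1 FPKM in double-null, 28.7 and 31.3 FPKM in STAT6-null, 27.6 and 23.6 FPKM in T-bet-null and 48.7 and 44.9 FPKM in WT libraries. The mutant genotypes overlapped in Ly6e and both WT libraries stood above them.

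The IFITM proteins sit in membranes and hinder the fusion of viruses with the cell. Their 3 listed genes lie together on chromosome 7, with 7742 bases between Ifitm2 and Ifitm1 and 39762 between Ifitm1 and Ifitm3, and all 3 were highest in STAT6-null cells. Ifitm1 stood at 5.39 and 4.79 FPKM in double-null, 11.7 and 11.2 FPKM in STAT6-null, 3.68 and 3.85 FPKM in T-bet-null and 2.56 and 2.06 FPKM in WT libraries. The 4 genotypes did not overlap and WT was the lowest. Ifitm1 rose in STAT6-null cells by 1.39 ± 0.09 against T-bet-null (limma adjusted p = 1.36e-05) and by 1.92 ± 0.09 against WT cells on the log2 scale (limma adjusted p = 3.78e-07). Ifitm2, the most abundant of the 3, stood at 55.0 and 55.6 FPKM in double-null, 76.2 and 73.9 FPKM in STAT6-null, 34.2 and 30.2 FPKM in T-bet-null and 38.5 and 25.2 FPKM in WT libraries. Its 2 WT libraries differed by 0.591 on the log2 scale and enclosed the T-bet-null ones, while the STAT6-null and double-null libraries stood above in that order. Ifitm2 rose by 0.76 ± 0.15 in double-null against T-bet-null cells on the log2 scale (limma adjusted p = 0.00665). Against STAT6-null cells its log2 difference in double-null cells was -0.43 ± 0.15 (limma adjusted p = 0.084), and the adjusted p was 0.00486 without either WT library. Ifitm3 stood at 3.10 and 3.55 FPKM in double-null, 8.41 and 7.45 FPKM in STAT6-null, 3.63 and 3.59 FPKM in T-bet-null and 4.66 and 4.29 FPKM in WT libraries. Only the STAT6-null libraries of Ifitm3 stood above WT. Ifitm3 fell by 1.05 ± 0.08 in double-null against STAT6-null cells (limma adjusted p = 9.41e-05). How reads were shared out among these related genes is not stated, so their levels are uncertain to that extent.

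**Figure D3:**
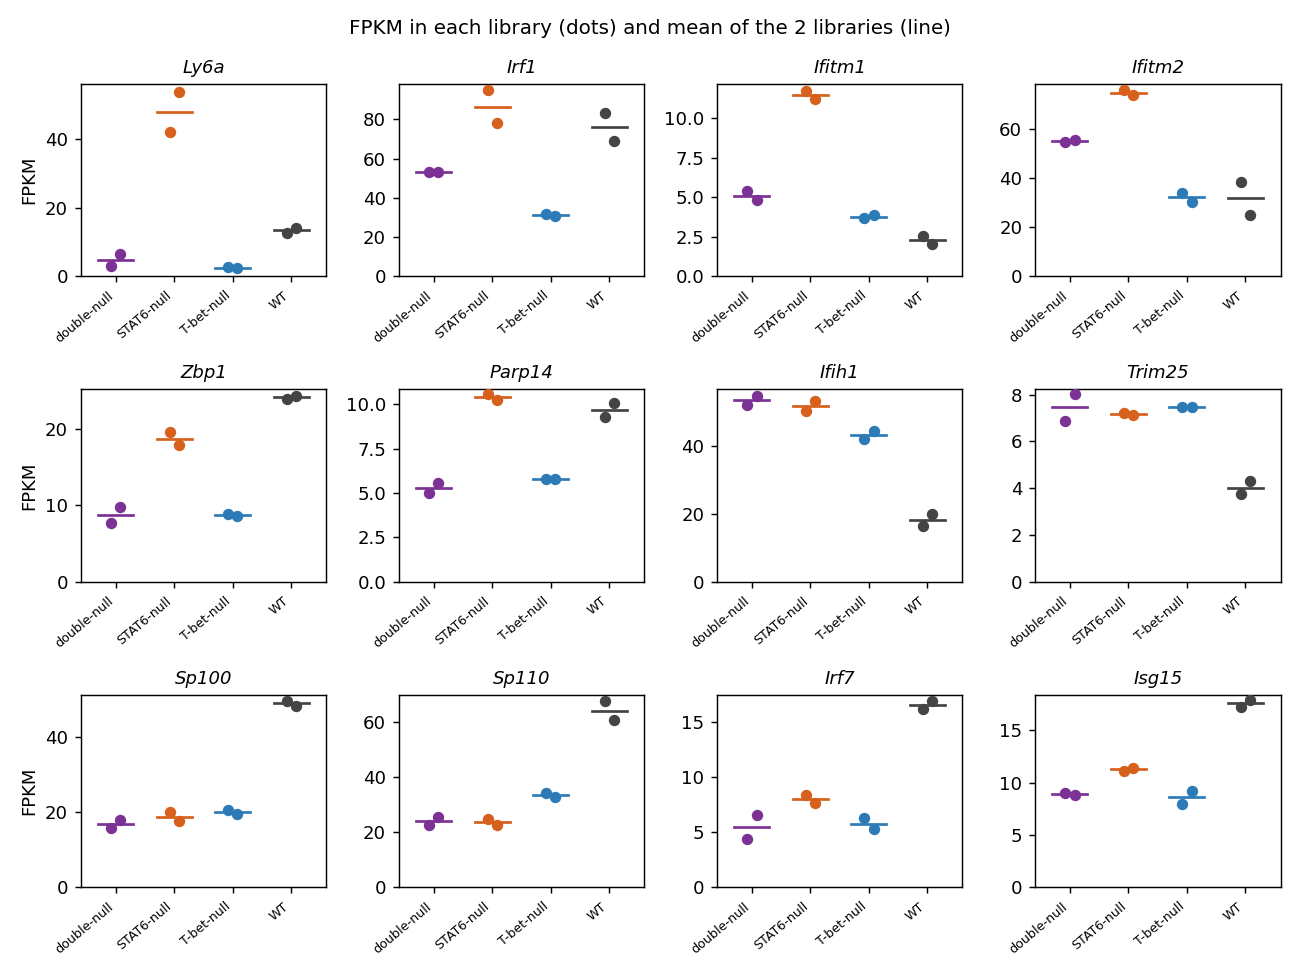
FPKM (vertical axes, each from 0) of 12 antiviral genes, chosen after their values were seen, in the 8 libraries (dots) with the mean of the 2 libraries of each genotype (line). Ly6a and the IFITM genes are highest in STAT6-null libraries, while the STAT6-null and WT libraries of Irf1 overlap. Ifih1 and Trim25 are lowest in WT libraries, and Sp100, Sp110, Irf7 and Isg15 are highest in WT libraries.

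The other tested restriction factors and antiviral enzymes were highest in WT cells. Bst2 encodes tetherin, which holds budding virus at the cell surface. It stood at 16.0 and 20.4 FPKM in double-null, 21.9 and 20.1 FPKM in STAT6-null, 15.3 and 17.1 FPKM in T-bet-null and 27.6 and 32.1 FPKM in WT libraries, with the mutant genotypes overlapping. Isg20 encodes an RNA exonuclease. It stood at 9.01 and 12.6 FPKM in double-null, 16.6 and 15.0 FPKM in STAT6-null, 12.5 and 12.8 FPKM in T-bet-null and 19.0 and 22.0 FPKM in WT libraries. Samd9l, a restriction factor of poxviruses, had another order, at 5.40 and 5.44 FPKM in double-null, 7.44 and 8.06 FPKM in STAT6-null, 8.48 and 9.04 FPKM in T-bet-null and 14.6 and 16.1 FPKM in WT libraries. The 4 genotypes of Samd9l did not overlap and the double-null cells were lowest. Samd9l fell in double-null cells by 0.60 ± 0.07 against T-bet-null (limma adjusted p = 0.000547) and by 0.45 ± 0.07 against STAT6-null cells (limma adjusted p = 0.00384). Of the 6 tested genes with this role, IFITM genes included, 4 were called higher in STAT6-null than in T-bet-null cells, where 12.3% of all tested genes were, and 4 lower in double-null than in STAT6-null cells, where 8.63% of all tested genes were.

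Sensors of foreign nucleic acid did not move as a block. Ifih1 encodes MDA5, a cytosolic sensor of long double-stranded RNA, and was the most abundant sensor in every mutant library. It stood at 52.0 and 54.9 FPKM in double-null, 50.5 and 53.3 FPKM in STAT6-null, 42.2 and 44.4 FPKM in T-bet-null and 16.4 and 20.1 FPKM in WT libraries. All 6 mutant libraries were above both WT libraries, and T-bet-null libraries were the lowest of the mutants. Ifih1 rose against WT by 1.51 ± 0.09 in double-null (limma adjusted p = 7.81e-07), 1.47 ± 0.09 in STAT6-null (limma adjusted p = 1.26e-06) and 1.21 ± 0.09 in T-bet-null cells (limma adjusted p = 4.25e-06) on the log2 scale. The related sensor RIG-I, encoded by Ddx58, went the other way. Ddx58 stood at 1.73 and 1.53 FPKM in double-null, 2.19 and 1.85 FPKM in STAT6-null, 1.94 and 1.60 FPKM in T-bet-null and 3.85 and 4.19 FPKM in WT libraries. The regulator LGP2, encoded by Dhx58, was at 0.71 to 0.93 FPKM in the 6 mutant libraries and at 1.98 and 2.26 FPKM in the WT libraries. Ddx58 fell against WT by 0.93, 0.74 and 0.86 on the log2 scale in double-null, STAT6-null and T-bet-null cells, and Dhx58 fell by 0.75, 0.78 and 0.85.

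Zbp1, which senses Z-form nucleic acid and can start necroptosis, split the genotypes by T-bet. It stood at 7.65 and 9.82 FPKM in double-null, 19.7 and 17.9 FPKM in STAT6-null, 8.90 and 8.68 FPKM in T-bet-null and 24.0 and 24.4 FPKM in WT libraries. All 4 libraries without T-bet were at most 9.82 FPKM and all 4 with T-bet at least 17.9 FPKM. Zbp1 was higher in STAT6-null than in T-bet-null cells by 1.01 ± 0.10 (limma adjusted p = 0.000142) and lower in double-null than in STAT6-null cells by 1.03 ± 0.10 on the log2 scale (limma adjusted p = 0.000257). Double-null and T-bet-null cells differed by -0.02 ± 0.10, with a 95% interval of -0.24 to 0.21. Adar, which edits adenosine in double-stranded RNA, was at 15.0 and 16.0 FPKM in double-null, 19.0 and 17.9 FPKM in STAT6-null, 15.2 and 15.2 FPKM in T-bet-null and 13.7 and 13.8 FPKM in WT libraries. Its STAT6-null libraries were the highest and its WT libraries the lowest. Eif2ak2, the kinase PKR that halts translation, was at 0.59 to 0.89 FPKM in the mutant libraries and at 1.15 and 1.56 FPKM in the WT libraries. Znfx1, a helicase that binds viral RNA, was at 4.33 to 5.87 FPKM in all 8 libraries, and its one call among the comparisons of genotypes was a fall of 0.26 on the log2 scale in double-null against STAT6-null cells.

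The ISG15 system, which attaches the small protein ISG15 to other proteins, was highest in WT cells. Isg15 stood at 8.98 and 8.82 FPKM in double-null, 11.1 and 11.4 FPKM in STAT6-null, 7.99 and 9.17 FPKM in T-bet-null and 17.3 and 17.9 FPKM in WT libraries. STAT6-null libraries were the highest of the mutants, and double-null libraries lay within the T-bet-null pair. Isg15 fell against WT by 0.91 ± 0.07 in double-null (limma adjusted p = 4.36e-06), 0.60 ± 0.07 in STAT6-null (limma adjusted p = 6.8e-05) and 0.96 ± 0.07 in T-bet-null cells (limma adjusted p = 4.62e-06). Uba7, the enzyme that activates ISG15, stood at 6.51 and 6.46 FPKM in double-null, 8.79 and 8.48 FPKM in STAT6-null, 9.24 and 9.23 FPKM in T-bet-null and 18.4 and 16.4 FPKM in WT libraries. Double-null cells were lowest without overlap, and Uba7 fell in them by 1.30 ± 0.07 against WT on the log2 scale (limma adjusted p = 4.13e-07). Herc6, the main ISG15 ligase in mouse, was at 0.83 to 1.17 FPKM in the mutant libraries and at 2.39 and 2.96 FPKM in the WT libraries. All 3 tested genes of the system were called lower in each mutant than in WT cells, as were 36.7% of all tested genes in double-null, 36.1% in STAT6-null and 36.3% in T-bet-null cells.

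The PARP group is a set of enzymes and partners on chromosome 16, with 54996 bases between Parp14 and Dtx3l, while Dtx3l and Parp9 overlap by 558 bases and reads from the overlap cannot be assigned to one of them without strand. All 3 were called higher in STAT6-null than in T-bet-null cells (12.3% of all tested genes) and lower in double-null than in STAT6-null cells (8.63% of all tested genes). Parp14, an ADP-ribosyltransferase also known as a cofactor of STAT6, stood at 4.99 and 5.59 FPKM in double-null, 10.6 and 10.2 FPKM in STAT6-null, 5.78 and 5.77 FPKM in T-bet-null and 9.26 and 10.05 FPKM in WT libraries. Libraries with T-bet were all above those without it, and STAT6-null libraries were not below WT. Parp14 fell by 0.86 ± 0.07 in double-null against STAT6-null cells on the log2 scale (limma adjusted p = 0.000114). Parp9, which pairs with the ubiquitin ligase Dtx3l, stood at 2.65 and 3.45 FPKM in double-null, 4.27 and 4.47 FPKM in STAT6-null, 2.79 and 2.80 FPKM in T-bet-null and 6.33 and 6.38 FPKM in WT libraries. Dtx3l stood at 3.09 and 3.42 FPKM in double-null, 4.97 and 5.13 FPKM in STAT6-null, 3.498 and 3.41 FPKM in T-bet-null and 3.67 and 3.86 FPKM in WT libraries. Parp9 was highest in WT and Dtx3l in STAT6-null libraries, although their products work as a pair.

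The TRIM ubiquitin ligases differed from each other. Trim25, which ubiquitinates RIG-I, stood at 6.89 and 8.02 FPKM in double-null, 7.203 and 7.11 FPKM in STAT6-null, 7.48 and 7.49 FPKM in T-bet-null and 3.76 and 4.29 FPKM in WT libraries. Every mutant library was above both WT libraries and the mutants overlapped, with rises of 0.75 ± 0.08, 0.70 ± 0.08 and 0.76 ± 0.08 on the log2 scale in double-null, STAT6-null and T-bet-null cells against WT. Trim30a stood at 4.95 and 5.90 FPKM in double-null, 8.43 and 8.16 FPKM in STAT6-null, 6.10 and 5.90 FPKM in T-bet-null and 10.2 and 11.4 FPKM in WT libraries. Trim21, a cytosolic receptor for antibody bound to virus, stood at 2.17 and 2.18 FPKM in double-null, 3.15 and 2.60 FPKM in STAT6-null, 1.92 and 1.71 FPKM in T-bet-null and 2.79 and 2.66 FPKM in WT libraries. In Trim30a and Trim21 both STAT6-null libraries stood above all 4 without T-bet, and both genes were called higher in STAT6-null than in T-bet-null cells, by 0.41 and 0.46 on the log2 scale.

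Genes of nuclear bodies included strong falls from the WT level. Sp100 and Sp110, related genes 39097 bases apart on chromosome 1, encode chromatin proteins of the speckled family. Sp100 stood at 15.9 and 17.9 FPKM in double-null, 19.96 and 17.7 FPKM in STAT6-null, 20.7 and 19.5 FPKM in T-bet-null and 49.7 and 48.4 FPKM in WT libraries. The mutant genotypes lay close together, and Sp100 fell against WT by 1.49 ± 0.08 in double-null (limma adjusted p = 3.95e-07), 1.34 ± 0.08 in STAT6-null (limma adjusted p = 9.75e-07) and 1.25 ± 0.08 in T-bet-null cells (limma adjusted p = 1.83e-06). Sp110 stood at 22.6 and 25.5 FPKM in double-null, 24.7 and 22.5 FPKM in STAT6-null, 34.2 and 32.8 FPKM in T-bet-null and 67.5 and 60.5 FPKM in WT libraries. Both T-bet-null libraries of Sp110 were above all 4 libraries that lack STAT6, and Sp110 was lower in STAT6-null than in T-bet-null cells by 0.49 ± 0.08 on the log2 scale (limma adjusted p = 0.00244). Sp110 was the only member called in this direction there. Its annotated span overlaps that of the related Sp140 by 23360 bases, so its reads may be uncertain. Pml, the scaffold of nuclear bodies, stood at 4.29 and 5.94 FPKM in double-null, 8.54 and 7.35 FPKM in STAT6-null, 4.93 and 4.84 FPKM in T-bet-null and 5.75 and 5.83 FPKM in WT libraries. STAT6-null libraries of Pml were above all others, and the double-null pair enclosed the T-bet-null and WT ones. Daxx, a histone chaperone of these bodies, was at 10.7 to 12.4 FPKM in the mutant libraries and at 9.53 and 9.39 FPKM in the WT libraries.

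The IFIT genes, whose products bind viral RNA, were low. Ifit1 stood at 0.511 and 0.411 FPKM in double-null, 0.614 and 0.590 FPKM in STAT6-null, 0.426 and 0.370 FPKM in T-bet-null and 2.099 and 2.02 FPKM in WT libraries. Both WT libraries stood far above every mutant library, and the log2 difference from WT, which understates changes of genes this low, was -1.07 in double-null, -0.93 in STAT6-null and -1.13 in T-bet-null cells. Ifit2 was at 0.81 to 1.41 FPKM in all 8 libraries. Ifit1 shares its span with Ifit1bl1 over 9121 bases, and the split of reads between them is uncertain. Of the remaining tested members, Rtp4, a chaperone of receptors, was at 0.84 and 1.34 FPKM in double-null, 2.87 and 1.97 FPKM in STAT6-null, 0.96 and 1.18 FPKM in T-bet-null and 2.91 and 3.71 FPKM in WT libraries. Rtp4 was called higher in STAT6-null than in T-bet-null cells and lower in double-null than in STAT6-null cells, by 0.71 on the log2 scale in each case. Tor3a, a torsin family ATPase, was at 1.92 and 2.03 FPKM in double-null libraries and at 2.72 to 3.59 FPKM in the other 6. Lgals3bp, a secreted glycoprotein, was at 7.47 to 9.68 FPKM in the mutant libraries and at 10.1 and 10.7 FPKM in the WT libraries. Xaf1, a partner of the apoptosis inhibitor XIAP, was at 1.51 to 2.03 FPKM in the mutant libraries and at 3.01 and 2.41 FPKM in the WT libraries.

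Of the listed antiviral genes with a line in the table, 6 were barely present, while Isg15, Bst2 and Irf7, described above, were well above 1 FPKM in every library. Mx1 and Mx2 (dynamin-like GTPases), Rsad2 (viperin), Cmpk2 (a nucleotide kinase next to Rsad2), Ifit3 and Usp18 (which removes ISG15) fell short of 1 FPKM in 2 libraries and were not tested. Mx1 stood at 0.398 and 0.580 FPKM in double-null, 0.576 and 0.382 FPKM in STAT6-null, 0.499 and 0.305 FPKM in T-bet-null and 1.08 and 0.909 FPKM in WT libraries. Usp18 stood at 0.21 and 0.35 FPKM in double-null, 0.48 and 0.55 FPKM in STAT6-null, 0.55 and 0.78 FPKM in T-bet-null and 0.97 and 1.54 FPKM in WT libraries. In each of the 6, both WT libraries were above all 6 mutant libraries, an order found in 33.7% of all tested genes. Over the 6 genes, mutant libraries ranged from 0.11 to 0.78 FPKM and WT libraries from 0.32 to 1.54 FPKM. With no filter on low values, limma called all 6 lower in double-null and T-bet-null and 5 lower in STAT6-null than in WT cells, and 0 of them in either comparison of STAT6-null cells with another mutant. It called Usp18 lower in double-null cells than in T-bet-null ones (log2 difference -0.38, limma adjusted p = 0.0496). Of all 11841 genes in that fit, 4169 were called lower than WT in double-null, 4077 in STAT6-null and 4048 in T-bet-null cells. In double-null against STAT6-null cells 1134 were called higher and 865 lower, and in STAT6-null against T-bet-null cells 1277 and 1595. Between double-null and T-bet-null cells 1752 were called lower in the double-null. Oas1a, Oasl1, Oasl2 and Ifi27 have no line in the table under these symbols. RefSeq gives Ifi27l1 as another name of Ifi27, and a line of that name stood at 24.3 and 26.3 FPKM in double-null, 31.8 and 33.7 FPKM in STAT6-null, 27.0 and 25.6 FPKM in T-bet-null and 45.3 and 41.3 FPKM in WT libraries. It was not counted among the members.

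**Figure D4:**
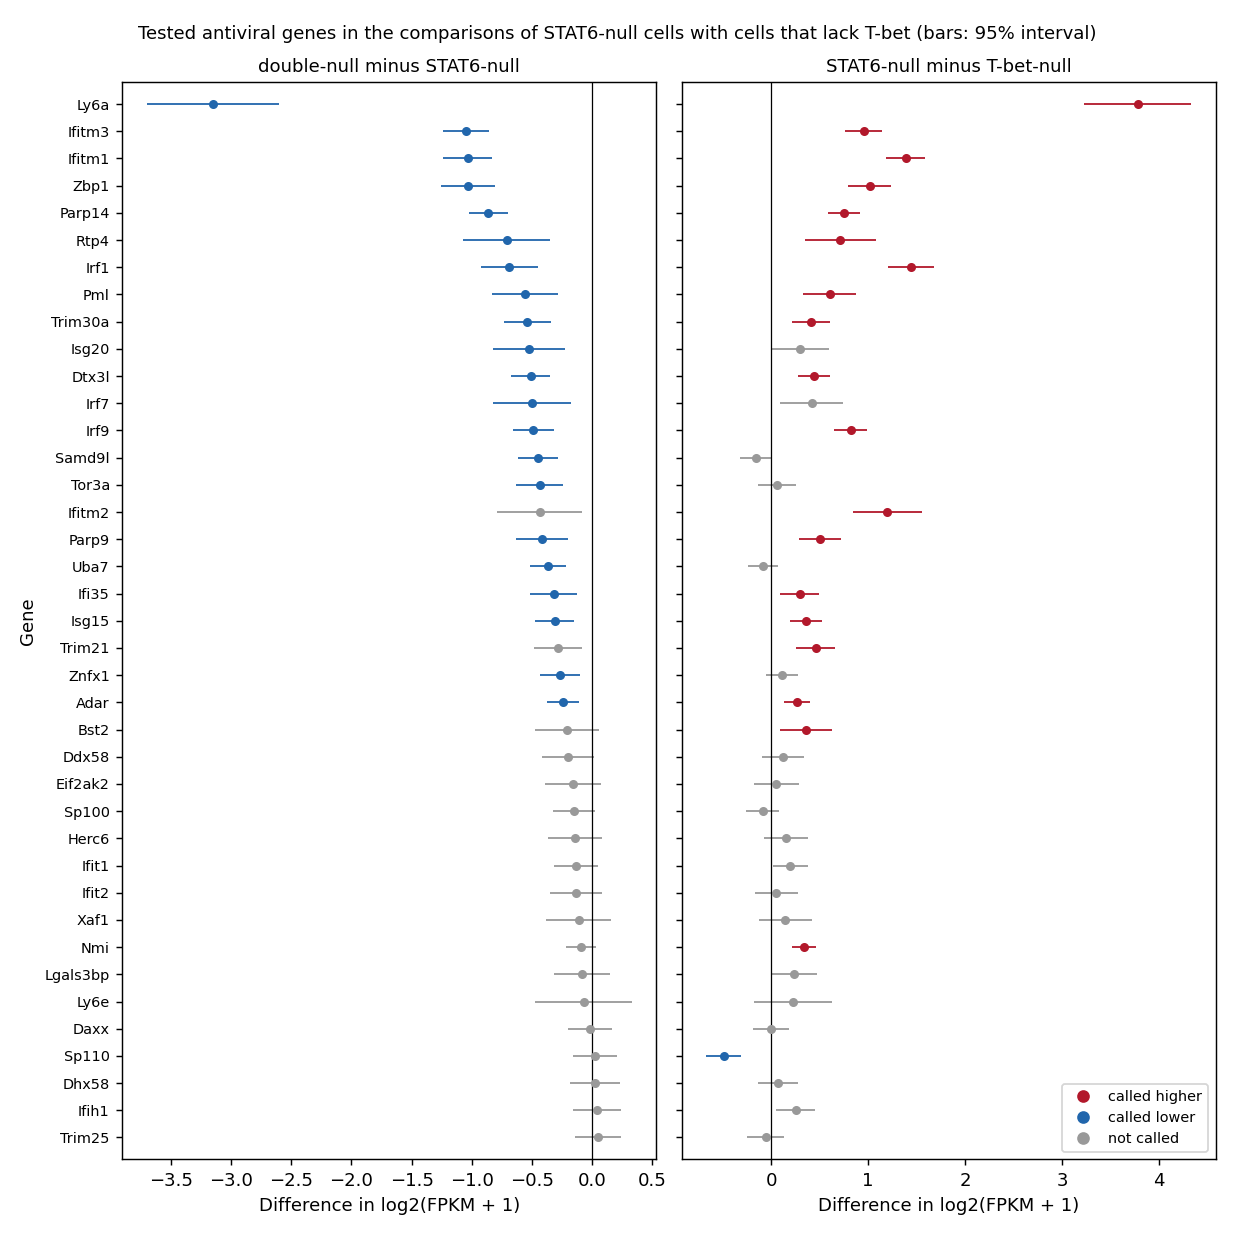
Difference in log2(FPKM + 1), with its 95% interval (bars), of the 39 tested antiviral genes for double-null minus STAT6-null cells (left) and STAT6-null minus T-bet-null cells (right), in order of the left panel; red is called higher, blue called lower and grey not called. On the left 21 genes are called lower and 0 higher, from -3.15 in Ly6a, and on the right 19 are called higher and 1, Sp110, lower.

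Many of the smaller differences between mutants depended on single libraries. Of the 21 calls in double-null against STAT6-null cells, 10 held under every alternative tried: Ly6a, Ifitm1, Ifitm3, Zbp1, Parp14, Irf1, Trim30a, Dtx3l, Irf9 and Samd9l. Without STAT6-null replicate 1 the count was 10, as Adar, Znfx1, Isg20, Isg15, Uba7, Parp9, Pml, Irf7, Ifi35, Rtp4 and Tor3a lost their call (adjusted p 0.0556 to 0.196). Without STAT6-null replicate 2, 7 of these lost it (0.0558 to 0.155), and without double-null replicate 1, 6 did (0.0556 to 0.14). Isg15 and Ifi35 lost it without double-null replicate 2 (0.0701 and 0.171), Znfx1 without either T-bet-null library (0.0587) and Irf7 without either WT library (0.0604 and 0.0606). With only the groups compared in the fit the count was 17, as Adar, Znfx1, Isg20, Parp9 and Irf7 lost their call (0.0548 to 0.0819). Irf7 also lost it with no intensity trend (0.0513) and with the replicate block (0.0632). Of the 20 calls in STAT6-null against T-bet-null cells, 13 held throughout, and Adar, Bst2, Ifi35, Isg15, Pml, Rtp4 and Trim30a lost theirs without 1 library or another (adjusted p up to 0.228). Without STAT6-null replicate 1, 6 calls were lost there, without replicate 2 it was 2, and without T-bet-null replicates 1 and 2 it was 5 and 4, while Bst2 alone was lost without either WT library (0.0501 and 0.0505). Bst2 also lost its call there with all libraries kept. Its limma adjusted p was 0.055 with no filter, 0.0624 with no intensity trend and 0.0501 with the lines of a symbol summed. Between double-null and T-bet-null cells, 5 of 11 calls held, those of Ifitm2, Irf1, Samd9l, Sp110 and Uba7. Sp100 lost its call with only the groups compared (limma adjusted p = 0.0594), no intensity trend (0.0552) and the replicate block (0.0565). Leaving out T-bet-null replicates 1 and 2 removed 4 and 6 calls, double-null replicates 1 and 2 removed 3 and 2, and either WT library removed that of Sp100 (adjusted p 0.0505 to 0.191), while quantile normalization removed that of Ifih1 (0.128). There the count of members higher was 3 without T-bet-null replicate 1 and 2 without T-bet-null replicate 2, and the count lower was 3 without T-bet-null replicate 2. With both WT libraries left out, an alternative added after the data were seen, 35 members were tested. Double-null cells then had 0 higher and 21 lower than STAT6-null and 6 higher and 4 lower than T-bet-null cells, and STAT6-null cells had 20 higher and 1 lower than T-bet-null cells. Of all 9957 genes then tested, 1208 were higher and 884 lower, 1669 and 1629, and 1257 and 1553, in the same order. In double-null cells Irf7 then lost its call against STAT6-null cells (limma adjusted p = 0.0604) and Sp100 against T-bet-null cells (0.0543).

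More of the calls against WT held. In T-bet-null cells 28 of 32 held under every alternative, in STAT6-null cells 22 of 29 and in double-null cells 29 of 35. In T-bet-null cells Ifitm3, Ifi35, Xaf1 and Daxx lost theirs: Ifitm3 and Daxx without T-bet-null replicate 1 (adjusted p 0.0778 and 0.114), Ifitm3, Ifi35 and Xaf1 without T-bet-null replicate 2 (0.0576 to 0.187) or WT replicate 1 (0.064 to 0.219), and Daxx without WT replicate 2 (0.0574). In STAT6-null cells Eif2ak2, Isg20, Pml, Daxx, Ly6e and Xaf1 lost theirs without STAT6-null replicate 1 (0.0622 to 0.11), and Zbp1, Isg20 and Xaf1 without STAT6-null replicate 2 (0.0748 to 0.176). Pml, Ly6e and Xaf1 lost theirs there without WT replicate 1 (0.0639 to 0.243), Isg20, Pml and Daxx without WT replicate 2 (0.0548 to 0.212), and Isg20 without either T-bet-null library (0.0516 and 0.0518). In double-null cells 3 and 5 calls were lost without double-null replicates 1 and 2, 5 and 4 without WT replicates 1 and 2, and those of Adar and Trim21 without either T-bet-null library, from among Adar, Ifit2, Trim21, Daxx, Ifi35 and Xaf1 (adjusted p 0.0523 to 0.164). Adar in double-null cells also lost its call with only the groups compared (limma adjusted p = 0.0833), and Xaf1 in STAT6-null cells with the replicate block (0.0539). Quantile normalization also ended calls against WT. In double-null cells Ifit2 then had a log2 difference of -0.11 (adjusted p = 0.331), Trim21 of -0.10 (adjusted p = 0.301) and Adar of 0.07 (adjusted p = 0.254), and in STAT6-null cells Eif2ak2 had -0.20 (adjusted p = 0.134) and Xaf1 -0.17 (adjusted p = 0.179).

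The rest of the interferon pathway was read from a second list of 90 genes, of which 72 were tested. Double-null cells had 0 of them called higher and 24 lower than STAT6-null cells, where 11.3% and 8.63% of all tested genes were called. STAT6-null cells had 29 higher and 7 lower than T-bet-null cells, where 12.3% and 14.9% of all tested genes were called. The ligand Ifng stood at 16.0 and 17.8 FPKM in double-null, 3516 and 3704 FPKM in STAT6-null, 32.4 and 33.9 FPKM in T-bet-null and 1029 and 1250 FPKM in WT libraries. Its range was far wider than that of any antiviral gene, and WT stood below the STAT6-null libraries. The part of Ifng in the antiviral genes' levels was not tested. Values are given for 4 further genes called with a difference of at least 2-fold between mutant genotypes. Slfn8, a schlafen gene, stood at 5.47 and 6.11 FPKM in double-null, 12.2 and 12.6 FPKM in STAT6-null, 1.24 and 1.23 FPKM in T-bet-null and 6.94 and 7.96 FPKM in WT libraries. Socs3, an inhibitor of cytokine signals, was higher in double-null (log2 difference 1.05) and STAT6-null cells (1.23) than in T-bet-null cells. Tap1, a peptide transporter, and Psmb9, a proteasome subunit, were higher in STAT6-null than in T-bet-null cells by 1.26 and 1.00 on the log2 scale. The receptor genes Ifnar1 and Ifngr1 were called lower in each mutant than in WT cells. Ifnar1 stood at 6.20 and 5.70 FPKM in double-null, 7.06 and 6.83 FPKM in STAT6-null, 8.58 and 8.60 FPKM in T-bet-null and 21.7 and 18.9 FPKM in WT libraries. Ifngr1 stood at 17.6 and 18.4 FPKM in double-null, 22.0 and 20.005 FPKM in STAT6-null, 18.9 and 19.0 FPKM in T-bet-null and 62.4 and 50.5 FPKM in WT libraries. Jak2 went the other way, at 333 to 393 FPKM in the mutant libraries and at 167 and 188 FPKM in the WT libraries. The 15 tested guanylate-binding proteins and immunity-related GTPases, left out of the list by rule, had 15 of 15 called lower in double-null than in STAT6-null cells (median log2 difference -1.204), against 21 of 39 and -0.308 for the antiviral genes.

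**Figure D5:**
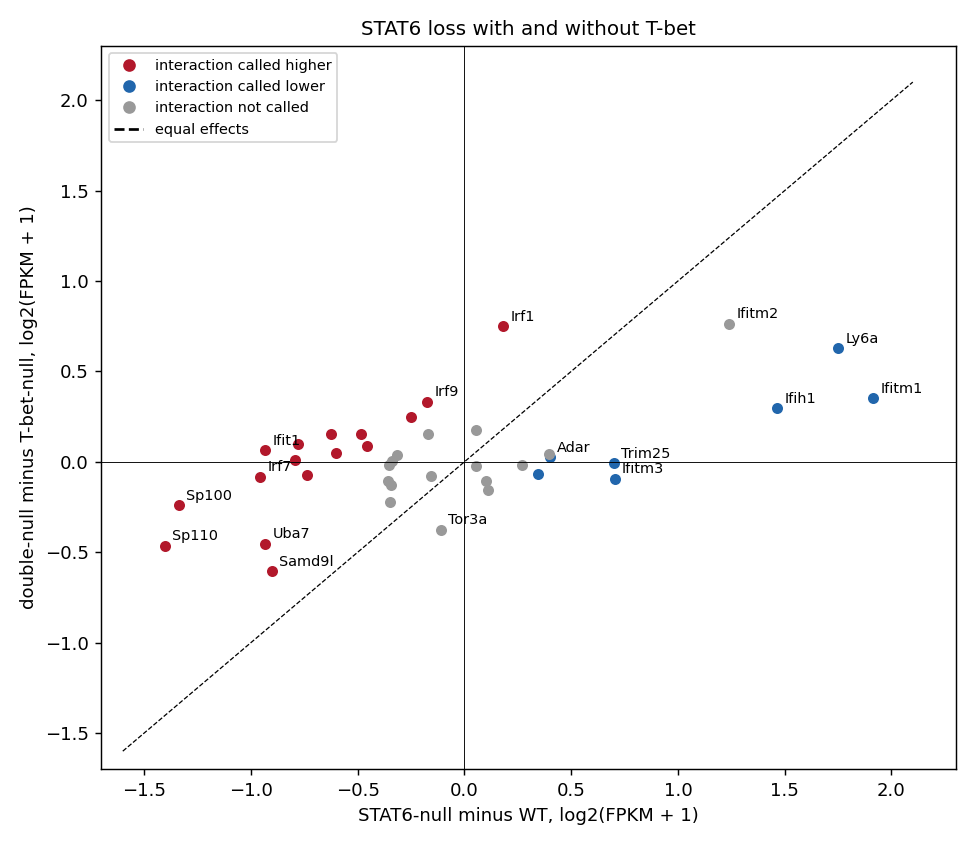
Effect of STAT6 loss on the 39 tested antiviral genes as a difference in log2(FPKM + 1): STAT6-null minus WT cells on the horizontal axis and double-null minus T-bet-null cells on the vertical axis, with the dashed line where both are equal. Most points lie near 0 on the vertical axis, and 16 genes above the line and 7 below it have an interaction called at an adjusted p under 0.05.

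Whether STAT6 loss acted alike with and without T-bet was read from the interaction, which was called in antiviral genes about as often as in all genes (59.0% and 57.3%). The interaction, here the STAT6 effect without T-bet minus the STAT6 effect with it, was called above 0 in 16 members (41%) and below 0 in 7 (17.9%), while 29.6% and 27.7% of all tested genes were called. Its median was 0.298 over the members and 0.01 over all genes. Among the 36 members that reached 1 FPKM in a mutant library, 14 were above 0 and 7 below. Sp100 had the highest value, with a log2 difference of -0.24 for STAT6 loss without T-bet and -1.34 with it. Ifitm1 had the lowest, with 0.35 without T-bet and 1.92 with it. Samd9l, Ly6a and Ly6e lost this call without 1 library or another (adjusted p up to 0.114), Samd9l without either double-null library, STAT6-null replicate 1, T-bet-null replicate 1 or WT replicate 2, Ly6a without STAT6-null replicate 2, T-bet-null replicate 1 or WT replicate 1, and Ly6e without STAT6-null replicate 1, T-bet-null replicate 2 or WT replicate 1. With all 8 libraries kept, Samd9l lost the interaction call with median-of-ratios scaling (limma adjusted p = 0.0557). Ly6a lost it with a pseudocount of 0.1 FPKM (0.0536) and with robust empirical Bayes (0.0648), and Ly6e with robust empirical Bayes (0.0501). The interaction uses the WT libraries, and their distance from all mutants enters it.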

How the data were processed

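RNA of 8 libraries was quantified by the authors as FPKM with Cufflinks against mm10, per the submitters' processing notes; aligner, versions, strandedness and the handling of reads that fit several genes are not stated there or in the labels. The deposited FPKM table has 11906 lines, all above 0.1 FPKM in every library, so genes under that level are not seen. Symbols on several lines (43) were kept on 1 line each, setting 65 lines aside. Limma 3.58.1 in R 4.3.3 was fitted to log2(FPKM + 1) for the 10281 genes with at least 1 FPKM in at least 2 libraries, over all 8 libraries with an intensity trend. Adjusted p-values are Benjamini-Hochberg within each of 7 comparisons over all tested genes, called under 0.05. The fit was also run on simulated data in which few genes changed, in the double-null group only. That run does not check error rates in the comparisons with WT, where most genes were called. A log2 difference on this scale understates changes of low genes. Relative depth came from 503 low genes. Figures and summaries used Python 3.11.15, pandas 2.3.3, SciPy 1.17.1 and matplotlib 3.10.9. All members are described, with values per library for those with the largest difference in their role and those called in opposite directions in different comparisons; other pathway genes are given by counts, with values for 5 at least 2-fold different between mutant genotypes, 1 more such gene not being reported here, and for 3 receptor and kinase genes picked after their values were seen. Members and lists were chosen with earlier results of these data known. Alternatives covered pseudocount, filter, scaling, fit, the replicate block and each library left out.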

Additional observations from a re-analysis of the deposited data

Results flagged for a closer look

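In 23 antiviral genes STAT6 loss had another effect in cells without T-bet than in cells with it, by limma's interaction test (adjusted p under 0.05). These are 59.0% of the 39 tested members, near the 57.3% of all tested genes with such a call, so their number is no result about the antiviral genes. The values are the effect without T-bet minus the effect with it on the log2(FPKM + 1) scale, and the WT libraries, which stand apart from all mutants, enter each of them. Values below 0 were -1.56 for Ifitm1, -1.17 for Ifih1, -1.12 for Ly6a, -0.80 for Ifitm3, -0.71 for Trim25, -0.41 for Dtx3l and -0.37 for Adar. Among sensors and IFIT genes, values above 0 were 0.66 for Ddx58, 0.88 for Dhx58 and 1.00 for Ifit1. Dhx58 and Ifit1 could be tested only because WT was high, and their values rest on that group. Among nuclear body genes and transcription factors they were 1.10 for Sp100, 0.94 for Sp110, 0.88 for Irf7, 0.57 for Irf1, 0.51 for Irf9 and 0.49 for Nmi. The ISG15 system had 0.65 for Isg15, 0.48 for Uba7 and 0.80 for Herc6. The remaining genes had 0.64 for Bst2, 0.30 for Samd9l, 0.54 for Parp9 and 0.78 for Ly6e. The calls of Samd9l, Ly6a and Ly6e did not hold under every alternative setting.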

How the results depend on the processing

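Under 20 alternative settings, counts of members called stayed within 1.5 times of the reported ones except where 1 library was left out. Members lower in double-null than in STAT6-null cells numbered 10 without STAT6-null replicate 1 (10 to 21 over the libraries). Against T-bet-null cells, double-null cells had 3 and 2 higher without T-bet-null replicates 1 and 2 (2 to 7) and 3 lower without T-bet-null replicate 2 (3 to 6). STAT6-null cells had 13 to 22 higher and 1 lower than T-bet-null cells whichever library was left out. The one reversed value was Ifitm2 in T-bet-null against WT cells, 0.04 with all libraries and -0.25 without WT replicate 2 (limma adjusted p = 0.0249), against 0.34 without WT replicate 1; the cause was the spread of its 2 WT libraries, 38.5 and 25.2 FPKM. With a pseudocount of 0.1 FPKM, 14 members in T-bet-null and 11 in STAT6-null cells were called at least 2-fold different from WT, against 8 and 6 at 1 FPKM. The labels do not say whether replicate numbers pair the samples. Correlations of same-numbered deviations were -0.0899 to 0.0907, so no strong shift shared by replicate number was seen. That does not show whether the samples were paired. With the replicate block, double-null cells had 0 members higher and 20 lower than STAT6-null cells and 7 higher and 4 lower than T-bet-null cells, and STAT6-null cells had 20 higher and 1 lower than T-bet-null cells. Of all 10281 tested genes, 1030 were higher and 806 lower, 1524 and 1567, and 1218 and 1442, in the same order. Ly6a in double-null against T-bet-null cells passed with the block (adjusted p = 0.0486). With 2 libraries a genotype and 4 residual degrees of freedom, small differences may be missed.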
